A study of Mus musculus with 8 samples.

Results

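The 8 genes Lpcat3, Mboat7, Mboat1, Mboat2, Lpcat1, Lpcat2, Lpcat4 and Lpgat1 encode lysophospholipid acyltransferases. They were taken by symbol and NCBI gene number from the 40838 genes of the count table, and all 8 were present and passed the filter on low counts. RNA was sequenced in 8 liver samples from C57BL/6 mice, 4 from a group given AAV-TBG-Lpcat3 and 4 from a group given AAV-TBG-eGFP. Every mouse ate a NASH diet, which produces steatohepatitis, for 16 weeks in all, and the adeno-associated virus was given after 7 of these weeks. TBG is a promoter active in hepatocytes, so delivery of Lpcat3 was aimed at these cells, while the RNA came from whole liver. The sources used here give neither the sex and age of the mice nor the dose of virus. Each sample has its own code in the labels, but nothing states that each came from its own mouse, and the p-values then cover only the spread from sample to sample.

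Membrane phospholipids are made with one set of fatty acids and are then remodelled. In the Lands cycle a phospholipase removes a fatty acid from a phospholipid, and an acyltransferase puts another one on the resulting lysophospholipid. The enzymes form 2 unrelated structural families. Lpcat3, Mboat7, Mboat1 and Mboat2 belong to the membrane-bound O-acyltransferases (MBOAT), while Lpcat1, Lpcat2, Lpcat4 and Lpgat1 belong to the family of the glycerol-phosphate acyltransferases. They differ in the lysophospholipid they accept and in the fatty acid they prefer. In liver, Lpcat3 is known for placing polyunsaturated fatty acids in phosphatidylcholine and as a target of the liver X receptors (LXR), nuclear receptors for oxysterols.

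Libraries held 22433625 to 25651874 counts, and levels are given as CPM, read counts scaled to the size of the library. Markers of hepatocytes, fixed as a list, summed to 78145 to 108418 CPM in Lpcat3 livers and 64630 to 94835 CPM in eGFP livers, with 0 of the 9 matched markers at 0, as the tissue label requires. On the first principal component, with 40.9% of the variance, Lpcat3 replicate 3 stood at 51.0 and eGFP replicate 3 at -46.1, at its opposite ends. The sample codes begin with 1290, 1317, 1344 or 1345, whose meaning the labels do not give. Codes 1290 and 1317 hold Lpcat3 replicate 1 and eGFP replicates 1, 2 and 3, and the other libraries have 1344 or 1345. The groups and these codes are therefore partly confounded, and each acyltransferase is also given within each division. Each division holds a single library of a group, Lpcat3 replicate 1 or eGFP replicate 4, so the differences within it rest on that library.

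Lpcat3, the delivered gene, was higher in every Lpcat3 liver than in any eGFP liver. Its level was 274, 401, 465 and 311 CPM in Lpcat3 replicates 1 to 4, against 158, 148, 133 and 173 CPM in eGFP replicates 1 to 4. The groups did not overlap, and Lpcat3 replicate 1 came closest to the eGFP livers. The means were 363 ± 86.7 and 153 ± 17.2 CPM (SD, n = 4 each; two-sided exact permutation test of log2 CPM, p = 0.0286, the smallest that 70 relabellings allow). The difference was 2.37-fold, with a 95% interval of 1.83 to 3.07 (log2 fold change 1.25, SE 0.17). Its unadjusted p in edgeR's quasi-likelihood test was 2.82e-05, which ranked 3 among 17438 genes, and its adjusted p over all genes was 0.164, so Lpcat3 did not pass the threshold of 0.05. DESeq2 called it (adjusted p = 9.77e-09), among 51 genes in all, or 0.292% of the 17438 genes that passed the filter. Across all genes edgeR called 1 gene, 0.00573% of those tested, which was Egfros, named here outside the naming rule. Of the genes with a mean of 1 CPM or more, 39 of 15087 had a larger log2 fold change than Lpcat3.

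Relative to the eGFP mean, Lpcat3 stood at 1.79-fold in replicate 1, 2.62-fold in replicate 2, 3.04-fold in replicate 3 and 2.03-fold in replicate 4, which is 121 to 312 CPM above that mean. Its coefficient of variation was 23.9% in Lpcat3 livers and 11.2% in eGFP livers. The difference in spread between the groups was not tested. Taken by code, the log2 difference was 0.91 in the libraries coded 1290 or 1317 and 1.16 in those coded 1344 or 1345. Without both libraries numbered 3, an alternative added after seeing the data, it was 1.04 (edgeR adjusted p = 0.338).

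Counts per gene do not separate vector transcripts from those of the mouse gene. The mouse gene starts at the promoter printed next, while the vector copy is under TBG. The window is chr6:124662854-124663153, plus strand, RefSeq on build GRCm38.p6, and it runs from 250 bases before to 50 bases after the start site. That build is not GRCm39, which the submitters' processing notes name. Capitals mark the motif CCAAT, searched on both strands.
Lpcat3 promoter: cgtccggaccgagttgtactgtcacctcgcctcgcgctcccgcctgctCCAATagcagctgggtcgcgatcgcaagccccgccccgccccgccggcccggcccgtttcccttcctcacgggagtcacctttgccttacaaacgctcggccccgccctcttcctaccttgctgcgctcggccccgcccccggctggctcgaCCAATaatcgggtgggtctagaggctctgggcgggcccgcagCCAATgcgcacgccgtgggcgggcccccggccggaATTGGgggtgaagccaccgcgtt
The window holds 4 matches, and 37.4% of 32851 promoter windows of the same length hold at least 1. How many windows hold as many as 4 was not counted, so that share does not tell whether 4 is unusual. These are matches of letters and not sites shown to be bound.

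The neighbours of Lpcat3 give a check on the locus. Emg1, which encodes a ribosome biogenesis methyltransferase and overlaps the annotated span of Lpcat3, was at 16 ± 1.32 CPM in Lpcat3 livers and 15.7 ± 1.25 CPM in eGFP livers (edgeR adjusted p = 0.945). Its log2 fold change was 0.02, with a 95% interval of -0.18 to 0.22. C1s2, the nearest gene on the other side, was at 54.5 ± 4.29 CPM and 56.9 ± 2.09 CPM (edgeR adjusted p = 0.792). Phb2, which encodes a prohibitin of the inner mitochondrial membrane and lies beyond Emg1, was at 85.8, 99.6, 107 and 90.2 CPM in Lpcat3 replicates 1 to 4, against 80.6, 87.3, 76.0 and 91.6 CPM in eGFP replicates 1 to 4. The groups overlapped for all 3 neighbours, and the Phb2 difference of 0.19 on the log2 scale did not pass (edgeR adjusted p = 0.600).

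None of the other 7 acyltransferases passed the test in either direction, and their groups overlapped in every case. Of the 8 genes, 0 were called by edgeR over all genes, against 0.00573% of all genes tested. At an unadjusted p under 0.05 edgeR counted 1 of 8, which was Lpcat3, against 8.48% of all genes. The groups did not overlap for 1 of 8, again Lpcat3, against 4.16% of all genes.

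**Figure D1:**
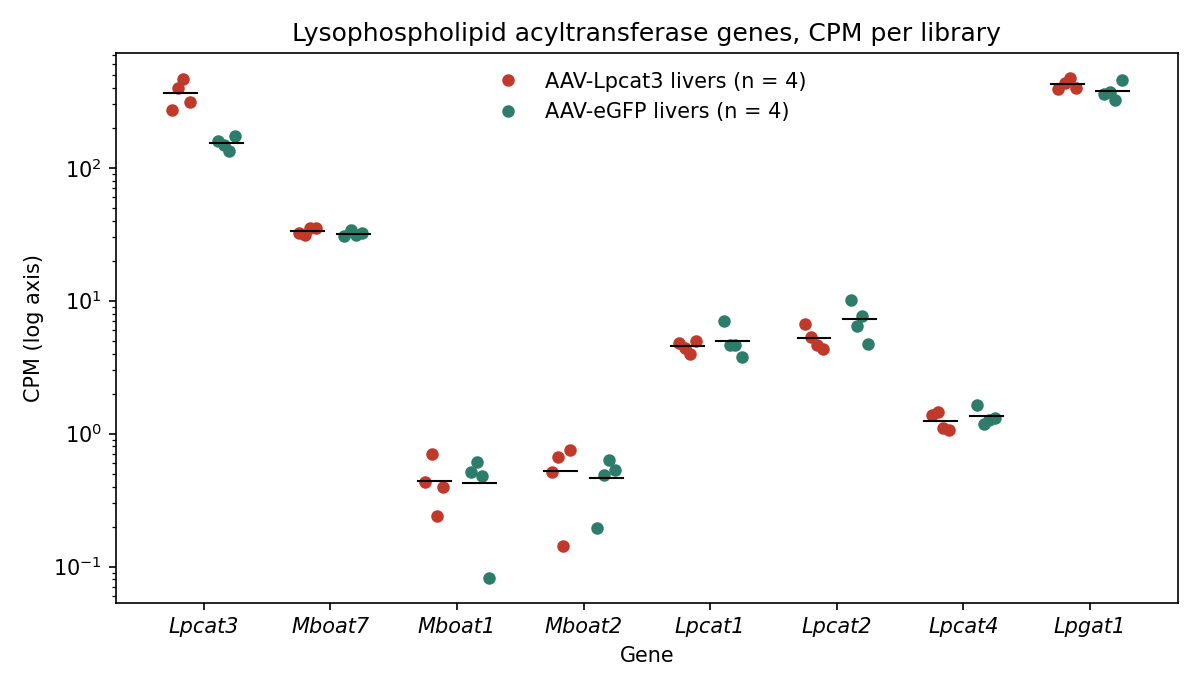
CPM of the 8 acyltransferase genes (log axis), with 1 point per library, Lpcat3 livers on the left and eGFP livers on the right of each gene, and a bar at each mean (n = 4 each). The groups separate for Lpcat3, at 274 to 465 CPM against 133 to 173 CPM, and overlap for the other 7.

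Among the MBOAT enzymes, Mboat7 had nearly the same mean in both groups. Mboat7 places arachidonic acid in phosphatidylinositol, and variants at the human gene are known from studies of fatty liver. It was at 32.3, 31.1, 35.3 and 35.4 CPM in Lpcat3 replicates 1 to 4, against 30.4, 34.0, 31.0 and 32.0 CPM in eGFP replicates 1 to 4. The 2 sets of values interleave. The fold was 1.05 with a 95% interval of 0.946 to 1.17 (edgeR adjusted p = 0.739), so an increase larger than 1.17-fold lies outside the interval. Its coefficient of variation was 6.48% in Lpcat3 livers and 4.98% in eGFP livers, the smallest among the 8 genes in each group, with counting error at 3.60% and 3.53%. On the log2 scale the difference by code was 0.02 in libraries 1290 and 1317 and 0.08 in libraries 1344 and 1345. Tsen34, a tRNA splicing endonuclease gene that overlaps Mboat7, was at 11.4 ± 1.14 CPM and 10.3 ± 1.27 CPM (edgeR adjusted p = 0.678), and the use of strand in counting is not given in the sources.

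Mboat1 and Mboat2 were near the limit of detection. Mboat1 acts on lysophosphatidylserine and lysophosphatidylethanolamine, and Mboat2 on lysophosphatidylcholine and lysophosphatidylethanolamine, both with oleic acid as a preferred donor. Mboat1 had 10, 16, 5 and 10 counts in Lpcat3 replicates 1 to 4, against 13, 15, 13 and 2 counts in eGFP replicates 1 to 4. The lowest value, 2 counts, was in eGFP replicate 4. Mboat2 had 12, 15, 3 and 19 counts in Lpcat3 replicates 1 to 4, against 5, 12, 17 and 13 counts in eGFP replicates 1 to 4. The summed counts were 41 in Lpcat3 livers (exact Poisson 95% interval 29.4 to 55.6) and 43 in eGFP livers (31.1 to 57.9) for Mboat1, and 49 (36.3 to 64.8) and 47 (34.5 to 62.5) for Mboat2, intervals that cover counting error only. At this depth the 95% interval of the fold ran from 0.479 to 2.30 for Mboat1 (edgeR adjusted p = 0.970) and from 0.542 to 2.37 for Mboat2 (edgeR adjusted p = 0.911), so at this depth even a 2-fold increase lay within the interval. Each gene had opposite signs in the divisions by code, where each difference rests on a single low-count library of a group. For Mboat1 in libraries 1344 and 1345 that library is eGFP replicate 4, with 2 counts. In libraries 1290 and 1317 the log2 difference was -0.26 for Mboat1 and 0.30 for Mboat2, and in libraries 1344 and 1345 it was 1.59 for Mboat1 and -0.25 for Mboat2.

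**Figure D2:**
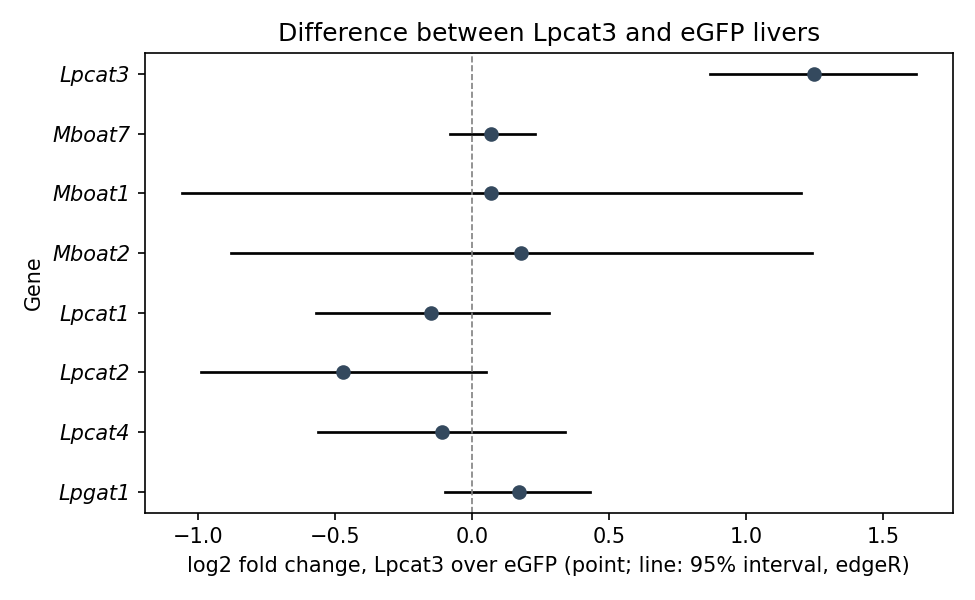
Log2 fold change of each gene, Lpcat3 over eGFP livers, with a 95% interval derived from the edgeR fit (n = 4 each). The interval of Lpcat3 runs from 0.87 to 1.62, the other 7 intervals include 0, and those of Mboat1 and Mboat2 are wide, from -1.06 to 1.20 and from -0.88 to 1.24.

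Lpgat1 was the most abundant of the 8 genes by counts. It was named as an acyltransferase for lysophosphatidylglycerol and resides in the endoplasmic reticulum. It was at 390, 431, 473 and 401 CPM in Lpcat3 replicates 1 to 4, against 359, 368, 323 and 460 CPM in eGFP replicates 1 to 4. The groups overlapped through eGFP replicate 4, which lay above 3 of the 4 Lpcat3 livers. The fold was 1.12 with a 95% interval of 0.935 to 1.35 (log2 fold change 0.17, SE 0.12; edgeR adjusted p = 0.671). Taken by code, it was 0.16 on the log2 scale in libraries 1290 and 1317 and -0.08 in libraries 1344 and 1345. Its direction was not the same in both, and the second value has eGFP replicate 4 as its only eGFP liver.

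Lpcat3 and Lpgat1 ranked the livers alike within each group. Among Lpcat3 livers both genes were lowest in replicate 1, next in replicate 4, then in replicate 2 and highest in replicate 3. Among eGFP livers both were lowest in replicate 3 and highest in replicate 4, while replicates 1 and 2 changed places. The first principal component of all genes ordered the Lpcat3 livers in the same way, at -9.02, 5.07, 12.4 and 51.0 for replicates 1, 4, 2 and 3, and put eGFP replicate 3 lowest and replicate 4 highest among eGFP livers. Its part in the spread of the 2 genes was not tested. The order was not particular to them, since Phb2, Agpat2 and Gpat4 ordered the livers of both groups as Lpgat1 did. The groups form separate clusters in Lpcat3, so no pooled correlation is given, and none was computed within groups of 4. Per coding kilobase, Lpcat3 was at 0.590 to 0.826 times the level of Lpgat1 in Lpcat3 livers. In eGFP livers it was at 0.317 to 0.371 times, and the ranges do not overlap. Per kilobase of all annotated exons it was at 1.64 to 2.29 times in Lpcat3 livers and 0.878 to 1.03 times in eGFP livers. Those ranges do not overlap either, but which gene stands higher depends on the length used.

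**Figure D3:**
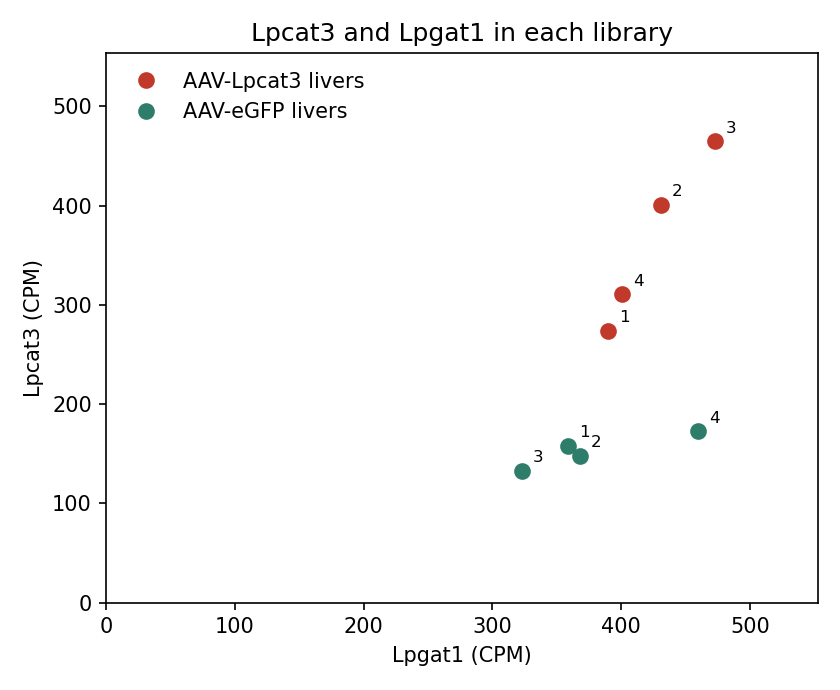
Lpcat3 CPM against Lpgat1 CPM in each library, numbered by replicate. Lpcat3 livers lie above eGFP livers, and within the Lpcat3 livers both genes are ordered as replicates 1, 4, 2 and 3.

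Lpcat1, Lpcat2 and Lpcat4 had low levels in these livers. Lpcat2 makes platelet-activating factor in inflammatory cells and also acylates lysophosphatidylcholine. It was at 6.71, 5.3, 4.65 and 4.3 CPM in Lpcat3 replicates 1 to 4, against 10.1, 6.49, 7.68 and 4.75 CPM in eGFP replicates 1 to 4. The highest 2 values were in eGFP livers, but eGFP replicates 2 and 4 lay within the range of the Lpcat3 livers. The fold was 0.721 with a 95% interval of 0.503 to 1.03 (log2 fold change -0.47, SE 0.23; edgeR adjusted p = 0.606). Taken by code, it was -0.24 on the log2 scale in libraries 1290 and 1317 and -0.01 in libraries 1344 and 1345. Leaving out each library in turn gave log2 fold changes of -0.63 to -0.27, with -0.27 without eGFP replicate 1.

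Macrophage markers were highest in the same eGFP livers as Lpcat2, replicates 1 and 3. A list of 18 markers of macrophages and Kupffer cells, the resident macrophages of the liver, summed to 647, 570, 472 and 518 CPM in Lpcat3 replicates 1 to 4, against 1006, 664, 908 and 630 CPM in eGFP replicates 1 to 4. Of these markers 16 of 18 had a log2 fold change below 0 with a median of -0.59, beside -0.01 over all genes. None passed in edgeR (0 of 18, against 0.00573% of all genes), and 0 were at 0 counts. At an unadjusted edgeR p under 0.05, 10 were lower, where 5.18% of all genes were. Per 100 CPM of these markers, Lpcat2 was at 0.83 to 1.04 CPM in Lpcat3 livers and 0.754 to 1.01 CPM in eGFP livers. This scale was chosen after the values were seen. The groups overlapped on it, but they also overlapped in CPM before scaling, so this overlap says nothing about the cells. The marker sums overlapped, since Lpcat3 replicate 1, at 647 CPM, lay above eGFP replicate 4, at 630 CPM. Each of these livers is the sole library of its group in its division by code. The high eGFP replicates 1 and 3 are coded 1290 and 1317, so the sums are partly confounded with code. The part of these cells in the Lpcat2 difference was not tested. In whole liver, fewer cells of a type and less RNA per cell cannot be told apart.

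**Figure D4:**
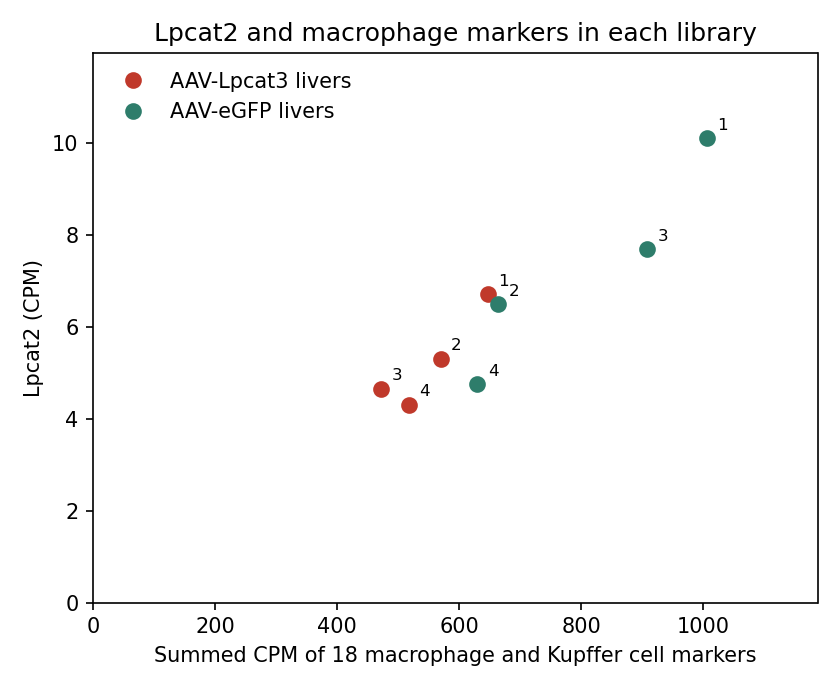
Lpcat2 CPM against the summed CPM of 18 macrophage and Kupffer cell markers in each library, numbered by replicate. Both measures are highest in eGFP replicate 1, at 10.1 and 1006 CPM, and the other 7 libraries lie between 4.3 and 7.68 CPM of Lpcat2.

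Lpcat1, which makes the saturated phosphatidylcholine of lung surfactant, was at 4.82, 4.37, 3.98 and 4.93 CPM in Lpcat3 replicates 1 to 4, against 6.99, 4.62, 4.64 and 3.80 CPM in eGFP replicates 1 to 4. The Lpcat3 livers lay inside the range of the eGFP livers. The fold was 0.904 with a 95% interval of 0.674 to 1.21 (edgeR adjusted p = 0.815), and without eGFP replicate 1 the log2 fold change turned to 0.06. By code the log2 difference was -0.14 in libraries 1290 and 1317 and 0.21 in libraries 1344 and 1345. Per 100 CPM of the macrophage markers, Lpcat1 was at 0.744 to 0.952 CPM in Lpcat3 livers and 0.511 to 0.695 CPM in eGFP livers. This ratio divides a level that overlapped between the groups by a marker sum that was lower on average in Lpcat3 livers, and whether Lpcat1 and Lpcat2 differ in their relation to the markers was not tested.

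Lpcat4, which acts on lysophosphatidylethanolamine and lysophosphatidylcholine, had 32, 33, 23 and 27 counts in Lpcat3 replicates 1 to 4, against 42, 29, 34 and 32 counts in eGFP replicates 1 to 4. The groups overlapped, and the fold was 0.925 with a 95% interval of 0.678 to 1.26 (edgeR adjusted p = 0.866). Its coefficient of variation, 15.4% in Lpcat3 livers and 15.1% in eGFP livers, was below the 18.7% and 17.1% that counting gives, so no spread beyond counting error was seen. By code, the log2 difference of Lpcat4 was 0.02 in libraries 1290 and 1317 and -0.13 in libraries 1344 and 1345. Lpcat4 here is NCBI gene 99010, since the symbol has also been used for Mboat2.

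Lpcat3 and Lpgat1 made up nearly all of the summed level of the 8 genes, and the balance between them differed by group. Counts were divided by length, since levels of different genes compare only per length. Per coding kilobase, Lpcat3 held 34.9%, 41.9%, 43.3% and 37.2% of the summed level in Lpcat3 replicates 1 to 4, against 25%, 23.3%, 23.6% and 22.7% in eGFP replicates 1 to 4. The mean share was 39.3% ± 3.92 in Lpcat3 livers and 23.6% ± 0.944 in eGFP livers (SD, n = 4 each), and the groups did not overlap. Lpgat1 held 55.6% ± 3.13 and 69.2% ± 1.88 on the same scale. A larger Lpcat3 level lowers every other share, so the shares of the other genes are no separate result. The summed level of the 7 other genes was 377 ± 30.0 CPM per coding kilobase in Lpcat3 livers and 339 ± 46.3 in eGFP livers, with ranges of 349 to 417 and 294 to 404 that overlap.

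The order of the top 2 genes depended on the length used. Coding length, 1.227 kilobases for Lpgat1 and 1.461 for Lpcat3, leaves out the other exon sequence, which is longer in Lpgat1. Dividing by it raises Lpgat1 relative to Lpcat3, and counts per gene do not show where in the exons the reads fell. Per coding kilobase, Lpgat1 stood above Lpcat3 in both groups, at 346 ± 30.4 and 248 ± 59.4 CPM per kilobase in Lpcat3 livers and at 308 ± 47.5 and 105 ± 11.8 in eGFP livers. Per kilobase of all annotated exons, which are 7.61 kilobases for Lpgat1 and 3.268 for Lpcat3, Lpcat3 stood above Lpgat1 in Lpcat3 livers, at 111 ± 26.5 against 55.7 ± 4.90, and did not differ from it beyond the spread in eGFP livers, at 46.8 ± 5.26 against 49.6 ± 7.67. Below them Mboat7 followed at 4.02 ± 0.260 CPM per exon kilobase in Lpcat3 livers and 3.82 ± 0.190 in eGFP livers, then Lpcat2 at 1.55 ± 0.315 and 2.14 ± 0.668, Lpcat1 at 0.977 ± 0.0944 and 1.08 ± 0.297, and Lpcat4 at 0.444 ± 0.0684 and 0.480 ± 0.0726. Lpcat1 and Lpcat2 overlapped in eGFP livers on this scale and did not overlap in Lpcat3 livers. Mboat1 and Mboat2 came last, with overlapping ranges in both groups.

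**Figure D5:**
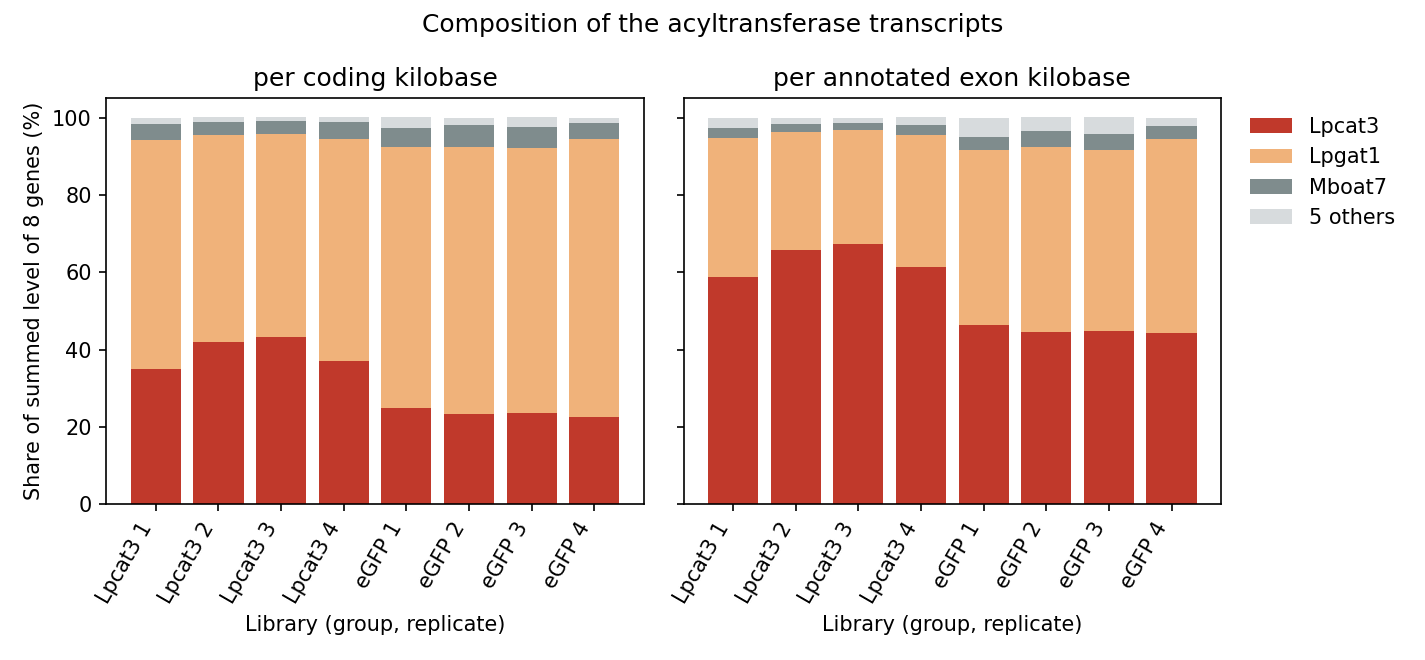
Share of the summed level of the 8 genes held by Lpcat3, Lpgat1, Mboat7 and the 5 others in each library, per coding kilobase (left panel) and per kilobase of annotated exons (right panel). The Lpcat3 share is higher in each Lpcat3 liver than in each eGFP liver on both scales, with means of 39.3% and 23.6% on the left and 63.3% and 45.0% on the right.

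Over the 8 libraries, the genes whose profile was most like that of Lpcat3 were Zfp972, a zinc finger gene, Alas1, the rate-limiting enzyme of heme synthesis, Zpr1, another zinc finger gene, and Socs2, a suppressor of cytokine signalling. Likeness was the root mean square difference of centred log2 CPM, and it was 0.23 for each of these 4 genes, among 12622 candidates, which leave out genes with predicted or clone symbols. Alas1 was at 817, 1285, 1290 and 791 CPM in Lpcat3 replicates 1 to 4, against 602, 485, 290 and 551 CPM in eGFP replicates 1 to 4. The other 3 also had groups that did not overlap, which the choice by likeness to Lpcat3 favours, so no test is given. The closest to Lpcat2 were Axl, a receptor tyrosine kinase that binds Gas6, at 0.09, the interferon-inducible Ifi207 at 0.10 and H2-DMa, which loads peptides on MHC class II, at 0.11. Axl was at 45.7 ± 7.51 CPM in Lpcat3 livers and 59.7 ± 16.1 CPM in eGFP livers, with overlap.

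Other steps of the Lands cycle and its supply were examined through 5 gene lists. No member of any list passed in edgeR, which called 0.00573% of all genes tested, so their lack of calls is no result about these lists. Genes listed with the phospholipases A2 were higher in 3 and lower in 7 of 10 genes tested, with a median log2 fold change of -0.07. Phospholipases A2 make lysophospholipids, but the list also holds Pnpla6 and Pnpla7, which break them down, so the count mixes both. Pla2g4a, the cytosolic enzyme that releases arachidonic acid, was at 4.17, 3.36, 3.26 and 2.47 CPM in Lpcat3 replicates 1 to 4, against 7.39, 4.33, 6.57 and 4.79 CPM in eGFP replicates 1 to 4. The groups did not overlap, but Lpcat3 replicate 1 and eGFP replicate 2 lay close together (log2 fold change -0.80, SE 0.22; edgeR adjusted p = 0.564). Pla2g7, a lipase of platelet-activating factor made by macrophages, was at 8.20 ± 2.43 and 12.2 ± 4.69 CPM, and the lysosomal Pla2g15 at 18.3 ± 1.31 and 21.3 ± 3.61 CPM, both with overlap.

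Genes listed as acyltransferases of new glycerolipid synthesis were higher in 9 and lower in 3 of 12 genes, with a median of 0.08. The list is wider than the path from glycerol phosphate to phosphatidic acid, since it also holds Gnpat, Lclat1 and Taz. Agpat1 was at 9.21, 10.2, 9.35 and 9.51 CPM in Lpcat3 replicates 1 to 4, against 8.80, 8.17, 7.87 and 7.48 CPM in eGFP replicates 1 to 4. The groups did not overlap, and the fold was 1.18 (edgeR adjusted p = 0.569). Gpat4 was at 129 ± 36.7 and 92.2 ± 32.0 CPM and Agpat2 at 159 ± 25 and 130 ± 29.6 CPM, with overlap. Of the other MBOAT genes, 3 were higher and 2 lower of 5 tested, with a median of 0.00. The sum over the list was 51.2 to 58.4 CPM in Lpcat3 livers and 59.1 to 64.8 CPM in eGFP livers. These ranges lay close together without overlap, while the sums of the other lists overlapped, and no sum was tested. Soat1, a cholesterol acyltransferase of macrophages among other cells, was at 15.0 ± 1.86 and 21.0 ± 5.32 CPM (edgeR adjusted p = 0.569). Soat2 was at 20.1 ± 2.44 and 23.1 ± 2.04 CPM, and Dgat1, which makes triglyceride, at 16.1 ± 0.976 and 14.5 ± 2.37 CPM. The groups overlapped for Soat1, Soat2 and Dgat1.

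Genes listed for the supply of polyunsaturated acyl-CoA were higher in 10 and lower in 3 of 13 tested. Their median was 0.18, beside -0.01 over all genes. The list also holds thioesterases, which split acyl-CoA, so its count and median do not measure supply. Acsl1, an acyl-CoA synthetase, was at 998, 1526, 1748 and 1269 CPM in Lpcat3 replicates 1 to 4, against 878, 873, 611 and 1419 CPM in eGFP replicates 1 to 4. The groups overlapped through eGFP replicate 4 (edgeR adjusted p = 0.599). Acot1, a thioesterase that splits acyl-CoA, was at 36.5 ± 10.7 and 22.4 ± 8.37 CPM, and Fads2, the delta-6 desaturase, at 1702 ± 210 and 1437 ± 121 CPM, both with overlap. LXR and its targets were higher in 9 and lower in 5 of 14, with a median of 0.05. Cyp7a1, the rate-limiting enzyme of bile acid synthesis, was at 368, 594, 831 and 308 CPM in Lpcat3 replicates 1 to 4, against 311, 297, 86.6 and 332 CPM in eGFP replicates 1 to 4. Lpcat3 replicate 4 lay among the eGFP livers (edgeR adjusted p = 0.582). Lpl, lipoprotein lipase, was at 68.1 ± 11 and 111 ± 32.2 CPM (edgeR adjusted p = 0.564) and the cholesterol exporter Abcg1 at 32.2 ± 2.21 and 41.0 ± 8.99 CPM (edgeR adjusted p = 0.579), with overlap for both. Lpl and Abcg1 are also expressed by macrophages, whose marker sums were lower on average but overlapped, as given above. The part of those cells was not tested.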

How the data were processed

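The deposited file is a count table with 1 column per library, made by the authors without normalization, for 8 libraries of ribosome-depleted liver RNA (stranded kit, single reads of 101 cycles, per the labels' protocols). Build GRCm39, bcl2fastq 2.20 and DESeq2 are named in the submitters' processing notes, while the aligner, the counter and any use of strand are not given in the sources. Columns were joined to samples by the codes in the titles. Symbols came from an NCBI RefSeq table of GRCm38.p6 (39397 of 40838 rows matched), used for names and neighbours, and lengths came from GENCODE M21.

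The filter filterByExpr (minimum count 10) left 17438 genes. Groups were compared with edgeR 4.0.16 in R 4.3.3 (TMM scaling, robust quasi-likelihood test, group as the only term), with two-sided p-values adjusted by Benjamini-Hochberg over all genes and called at 0.05. CPM used TMM-scaled totals, and log2 CPM a prior count of 2. The edgeR test returns no standard error, so SE was taken as the fitted coefficient over the square root of its F statistic. The 95% intervals were set around the log2 fold change with this SE and a t distribution. Alternatives used DESeq2 1.42.0 and limma 3.58.1. These fits were tested on simulated data. Replicates of a group differed beyond sampling noise, with a chi-square per degree of freedom of 18.9 to 118 over 12 pairs.

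The members and lists were chosen with earlier results of these data known. Named genes were the 8 members, up to 3 genes per list by edgeR p, the genes most like Lpcat3 (4) and Lpcat2 (3) at a mean of 1 CPM or more and without a predicted or clone symbol, and neighbours whose reads bear on a member. Of the cell type markers, lists of neutrophils, lymphocytes, stellate cells, endothelial cells and cholangiocytes were also summed.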

Additional observations from a re-analysis of the deposited data

Results flagged for a closer look

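Cyp7a1 in eGFP livers had 1 library far from the others. It was at 86.6 CPM in eGFP replicate 3, while the other eGFP livers lay between 297 and 332 CPM, and the gap took 0.857 of the range, above Dixon's 95% critical value for 4 samples. Of 70 groups of 4 that were checked this was the only one past the critical value, and chance alone passes about 1 in 20. None of the 8 acyltransferases had such a library in either group.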

How the results depend on the processing

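The Lpcat3 log2 fold change kept its direction in 19 of 19 alternatives. It was called with DESeq2 (1.25), with library totals in place of TMM (1.12, adjusted p = 0.0234) and without Lpcat3 replicate 1 (1.36, adjusted p = 0.0477). Leaving out each library in turn gave 1.10 to 1.36, with adjusted p of 0.0477 to 0.456, and the code division as a term gave 1.04 (adjusted p = 0.322). Members called were then 1 with DESeq2, library totals or without Lpcat3 replicate 1, and 0 otherwise (0 to 1 over the libraries left out). Genes called across all genes were 1 in the main comparison, 51 with DESeq2, 3 with library totals, 2 without robust estimation, 0 to 7 on leaving out each library, and 0 without a filter, with the replicate block, with the code division and without both libraries numbered 3. The main comparison had 1478 genes at an unadjusted edgeR p under 0.05.

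Library totals shifted the median gene by -0.12, and Mboat1 (-0.06) and Mboat7 (-0.05) then turned. Lpcat1 turned to 0.02 with the code division. Over the libraries left out, Lpcat1 ran from -0.26 to 0.06, Mboat1 from -0.26 to 0.29 and Mboat2 from -0.07 to 0.47. The cause was not tested. The Lpcat3 share of the summed level in Lpcat3 and eGFP livers was 63.3% and 45.0% per exon kilobase and 43.2% and 26.6% of counts without length, against 39.3% and 23.6% per coding kilobase.

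Replicate numbers did not pair the libraries: 1 of 4 same-numbered pairs correlated over 0.1 (0.285, -0.0689, -0.4 and -0.124), and 2 of 8 libraries correlated best with their own number. With the replicate block Lpcat3 was at 1.22 (adjusted p = 0.430). Low counts limit Mboat1, Mboat2 and Lpcat4. The stricter filter left Mboat1 and Mboat2 untested.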

Other observations

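Acsl1 ordered the livers as Lpcat3 did in both groups, lowest in replicate 1 and highest in replicate 3 among Lpcat3 livers, and lowest in replicate 3 and highest in replicate 4 among eGFP livers. Agpat2, at 132, 176, 184 and 145 CPM, and Gpat4, at 89.7, 126, 178 and 123 CPM in Lpcat3 replicates 1 to 4, ordered the Lpcat3 livers in that way too, as did Phb2. Among eGFP livers Agpat2, Gpat4 and Phb2 followed the order of Lpgat1. These orders were noticed after the values were seen and were not tested.

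Markers of other cell types were summed in each library. Neutrophil markers came to 5.08 to 8.65 CPM in Lpcat3 livers and 7.52 to 21.3 CPM in eGFP livers, and markers of T, NK and B cells to 5.57 to 7.62 CPM and 4.90 to 12.0 CPM. Stellate cell and myofibroblast markers came to 547 to 872 CPM and 727 to 895 CPM, endothelial markers to 664 to 825 CPM and 782 to 878 CPM, and cholangiocyte markers to 57.3 to 146 CPM and 55.5 to 105 CPM. The groups overlapped for each of these 5 sums. Single markers leaned in one direction in several of these lists, with 0 passing in edgeR, against 0.00573% of all genes. Endothelial markers had a log2 fold change below 0 in 9 of 9 (median -0.18; 4 at an unadjusted p under 0.05), neutrophil markers in 4 of 4 (median -0.81; 1 at that p), T, NK and B cell markers in 8 of 9 (median -0.43; 0 at that p) and stellate cell markers in 8 of 11 (median -0.08; 1 at that p). Cholangiocyte markers were above 0 in 6 of 7 (median 0.38; 2 at that p). Over all genes tested the median was -0.01, and 48.5% had a log2 fold change above 0. At that p, 8.48% of all genes differed in either direction and 5.18% were lower. In addition, 1 marker, Spp1, stands in both the cholangiocyte and the macrophage lists.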
